A study of Mus musculus with 8 samples.

Results

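The HIF prolyl hydroxylases Egln1, Egln2 and Egln3, also called PHD2, PHD1 and PHD3, were followed across cells that lack VHL, FIH or both. Every probe set that the platform annotation gives to one of these genes alone was taken. That made 5 of the 45101 probe sets and 3 of the 18193 genes that the arrays cover, with 2 probe sets for Egln1, 1 for Egln2 and 2 for Egln3. No probe set was shared between a member and another gene, and all 5 passed the filter on low signals.

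Gene expression had been measured on Affymetrix whole-genome mouse arrays in mouse embryonic fibroblasts (MEFs) immortalized with large T antigen and grown at 21% oxygen. The 8 arrays fall into 4 groups of 2, labelled VHL/FIH null, VHL null, FIH null and wild type. The null cells were made by infecting immortalized MEF lines, labelled VHLdf/FIHdf, VHLdf and FIHdf, with adenovirus that delivers the Cre recombinase. Each null genotype thus has its own starting line, so genotype and line cannot be told apart, and the labels do not say whether wild type cells received the virus. Large T antigen was present in every group, the wild type included. The labels call the samples biological replicates without saying whether they were separate embryos or cultures, and p-values therefore speak of the spread among these arrays alone.

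HIF prolyl hydroxylases use oxygen, iron and 2-oxoglutarate to hydroxylate prolines of HIF alpha subunits. The hydroxylated subunit is bound by VHL, the recognition part of a ubiquitin ligase, and destroyed. FIH, encoded by Hif1an, hydroxylates an asparagine of the same subunits and so limits their contact with the coactivators p300 and CBP. Egln1 is known as the main hydroxylase that keeps HIF low in normal oxygen, and Egln1 and Egln3 are themselves known targets of HIF, which makes them feedback genes. Egln2 is not known as a hypoxia-induced gene.

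The bases before the annotated start of each gene are shown to mark a short motif, which is present before all of them. Whether the motif has a part in how the members changed was not tested. Sequences are from RefSeq, build GRCm38.p6, all on the minus strand and written 5′ to 3′. Capitals mark ACGTG, the core letters of many HIF response elements, searched on both strands. The windows are chr8:124949255-124949504 for Egln1, chr7:27166803-27167052 for Egln2 and chr12:54203875-54204124 for Egln3, each 250 bases long and lying outside the gene, with the outermost of 2 annotated starts taken for Egln2.
Egln1: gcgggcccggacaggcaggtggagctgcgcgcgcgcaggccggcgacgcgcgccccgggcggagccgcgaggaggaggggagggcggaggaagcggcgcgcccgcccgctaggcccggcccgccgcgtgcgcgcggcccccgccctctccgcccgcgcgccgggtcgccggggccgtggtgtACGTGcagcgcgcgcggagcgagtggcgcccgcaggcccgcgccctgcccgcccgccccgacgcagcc
Egln2: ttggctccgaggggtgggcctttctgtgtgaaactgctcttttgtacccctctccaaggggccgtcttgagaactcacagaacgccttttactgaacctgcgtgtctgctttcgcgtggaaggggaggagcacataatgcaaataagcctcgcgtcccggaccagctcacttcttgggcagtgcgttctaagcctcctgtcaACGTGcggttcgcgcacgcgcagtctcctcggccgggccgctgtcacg
Egln3: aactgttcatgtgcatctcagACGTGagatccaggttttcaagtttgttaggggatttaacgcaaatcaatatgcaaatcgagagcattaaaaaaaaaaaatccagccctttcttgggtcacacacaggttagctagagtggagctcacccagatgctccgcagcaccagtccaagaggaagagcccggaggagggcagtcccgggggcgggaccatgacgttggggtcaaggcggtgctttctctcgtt
ACGTG was found 1 time in each window, 68 to 64 bases before the start of Egln1, 48 to 44 before that of Egln2 and 229 to 225 before that of Egln3. Of 32851 RefSeq windows of this length, 16.6% hold ACGTG on either strand. The related letters GCGTG occurred 1 time for Egln1, 3 times for Egln2 and 0 times for Egln3, against 28.2% of all windows. The Egln1 window was 86.0% G and C, the Egln2 window 59.2% and the Egln3 window 50.8%, beside a median of 52.4% over all windows. A match of letters is a description and does not show binding. Egln1 lies on chromosome 8 from 124908587 to 124949254, Egln2 on chromosome 7 from 27158658 to 27166802 and Egln3 on chromosome 12 from 54178981 to 54203874.

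Values are the authors' MAS5 signals, a linear brightness per probe set, which every array had scaled to a trimmed mean of 2500.01. Changes are differences of group means of log2(signal + 16), fitted with limma over 24523 probe sets with all 8 arrays, and p-values were adjusted by Benjamini-Hochberg over all of them with a threshold of 0.05. The median of all signals, 291.1, served as the cutoff for low signal. Arrays of the same group correlated across tested probe sets with r from 0.987 to 0.988 and arrays of different groups with r from 0.946 to 0.977. Vhl signal averaged 979 ± 116 in VHL/FIH null, 731 ± 33.2 in VHL null, 3480 ± 76.5 in FIH null and 3294 ± 36.0 in wild type cells (SD, n = 2 each). Hif1an averaged 1286 ± 166, 2033 ± 169.9, 1691 ± 21.7 and 2867 ± 206 in the same order of groups, lowest where both genes were targeted, and VHL null cells were also below wild type (log2 difference -0.49, limma adjusted p = 0.00886). Which exons are removed, and where the probes lie relative to them, is not in the labels. Of 11 fibroblast marker genes, 7 were above the cutoff on all arrays, among them Col1a1 and Vim. Of the others, Pdgfra was above it on 6 arrays (160 to 2024), Dcn on 4 (47.7 to 1128), Thy1 on 3 (141 to 440) and Lum on 0. Markers of other cell types were partly present. Of 5 leukocyte markers, Cd68 (344 to 752) and Csf1r (539 to 864) were above the cutoff on all 8 arrays and Ptprc, Adgre1 and Itgam on 0. Of 5 endothelial markers, Kdr was above it on 4 arrays, Tek on 1 and Pecam1, Cdh5 and Emcn on 0. Of 5 epithelial markers, Krt18 and Krt19 were above it on 8 arrays, Epcam on 7, Krt8 on 1 and Cdh1 on 0. Of 5 muscle markers, Des was above it on 3 arrays, Actc1 on 1 and Myod1, Myog and Tnnt3 on 0. In bulk RNA, fewer cells of a type and less RNA per cell cannot be told apart. With 2 arrays a group, precision is limited by their number.

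Egln3 rose in VHL null cells, rose less in FIH null cells by the brighter of its probe sets, and reached its highest signal where both genes were lost. Probe set 1418649_at read 17534 and 16702 in VHL/FIH null, 4188 and 4412 in VHL null, 1086 and 1106 in FIH null and 633 and 603 in wild type cells. The 4 groups did not overlap. Each of the 3 null groups lay above wild type on both arrays.

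In VHL null cells Egln3 was 6.81-fold above wild type by this probe set (log2 difference 2.77, SE 0.084, limma adjusted p = 1.65e-08). In FIH null cells it was 1.75-fold above wild type (log2 difference 0.81, adjusted p = 0.000265). In VHL/FIH null cells it was 27.0-fold above wild type (log2 difference 4.76, adjusted p = 6.64e-10). That last change had the smallest p of all tested probe sets, and 15 probe sets had a larger rise on the log2 scale.

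The second Egln3 probe set, 1418648_at, was dimmer and gave smaller changes in the same order. It read 4426 and 3782 in VHL/FIH null, 1238 and 1074 in VHL null, 464 and 528 in FIH null and 353 and 295 in wild type cells, the last close to the cutoff. These groups did not overlap either. Its log2 difference from wild type was 3.60 in VHL/FIH null (SE 0.16) and 1.79 in VHL null cells, and both passed (adjusted p = 1.05e-07 and 2.51e-05). The difference of 0.59 in FIH null cells missed the threshold (95% interval 0.24 to 0.95, adjusted p = 0.0697). The 2 probe sets of Egln3 thus differed by 0.98 in the size of the VHL null change and by 0.22 in that of the FIH null change, differences that were not tested.

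**Figure D1:**
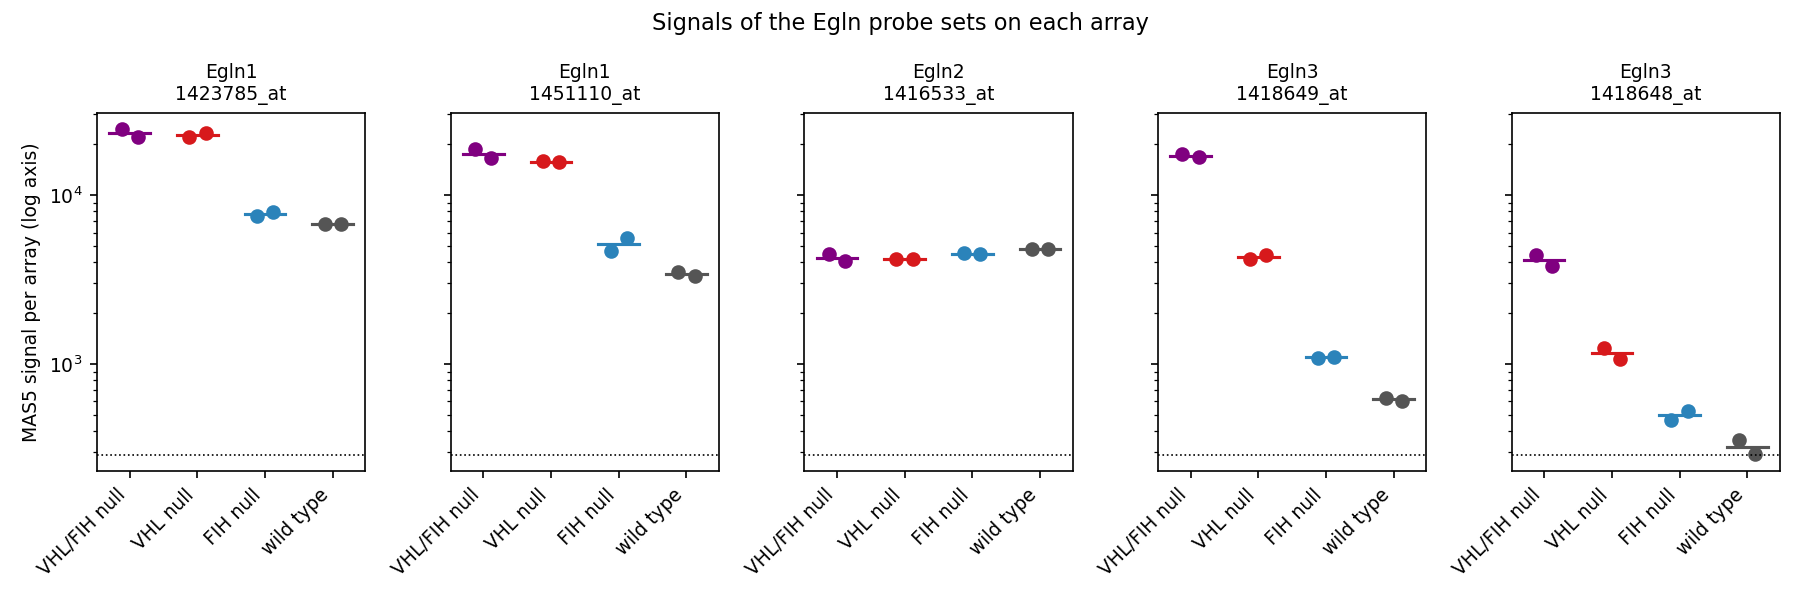
MAS5 signal (log axis) of the 5 Egln probe sets, with 1 panel each, in VHL/FIH null, VHL null, FIH null and wild type MEFs. Points are arrays (n = 2 per group), bars are group means and the dotted line is the cutoff of 291.1. Both Egln3 panels step down from left to right without overlap, both Egln1 panels have 2 high and 2 low groups, and Egln2 stays between 4044 and 4795.

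VHL/FIH null cells were then set against VHL null cells, to ask whether Egln3 differs when FIH is lost as well as VHL. It was higher by both probe sets. Against VHL null cells, VHL/FIH null cells had 3.97-fold more signal by 1418649_at (log2 difference 1.99, 95% interval 1.80 to 2.18, adjusted p = 1.24e-07) and 3.51-fold more by 1418648_at (log2 difference 1.81, 95% interval 1.46 to 2.17, adjusted p = 2.08e-05). Of all tested probe sets, 212 had a larger rise in this contrast than 1418649_at. Against FIH null cells the log2 difference of VHL/FIH null cells was 3.95 and 3.01 for the same probe sets, and both passed (adjusted p = 1.53e-09 and 2.88e-07).

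Some markers of other cell types were, like Egln3, highest in VHL/FIH null cells. The summed signal of 5 epithelial markers was 40050 to 47375 in VHL/FIH null, 15824 to 16161 in VHL null, 11132 to 11466 in FIH null and 10023 to 10117 in wild type cells, the order seen for Egln3. Nearly all of it was Krt19, at 39118 to 46125 in VHL/FIH null and 7557 to 7962 in wild type cells, and the other epithelial markers did not follow it. Krt18 ran the other way, at 298 to 383 in VHL/FIH null, 631 to 684 in VHL null, 1267 to 1360 in FIH null and 1356 to 1393 in wild type cells. Epcam read 460 to 518 in VHL/FIH null, 150 to 418 in VHL null, 780 to 811 in FIH null and 379 to 600 in wild type cells, Krt8 at most 296 and Cdh1 at most 239. The summed signal of 4 adipocyte markers was 1817 to 2259 in VHL/FIH null, 281 to 358 in VHL null, 306 to 423 in FIH null and 436 to 500 in wild type cells. That came from the fatty acid binding protein gene Fabp4, and Adipoq, Cidec and Lep were below the cutoff on all arrays. Unlike Egln3, the adipocyte sum lay below wild type in VHL null and in FIH null cells. Sums of 5 leukocyte, 5 endothelial and 5 muscle markers overlapped between VHL/FIH null and wild type cells. The sum of 11 fibroblast markers did not, at 355024 to 403737 in VHL/FIH null and 334098 to 353351 in wild type cells. It was 342968 to 355224 in VHL null and 387358 to 415229 in FIH null cells. The part of these markers in the result for Egln3 was not tested.

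In the interaction contrast, too, loss of FIH and starting line cannot be told apart. It asked whether the change upon FIH loss was the same with and without VHL. It was larger without VHL for Egln3, by 1.18 on the log2 scale with 1418649_at (SE 0.12, adjusted p = 0.00014) and by 1.22 with 1418648_at (SE 0.23, adjusted p = 0.00509). The single changes of 1418649_at added up to 3.58 on the log2 scale, an 11.9-fold rise, while the measured rise in VHL/FIH null cells was 27.0-fold. For 1418648_at the sum corresponded to 5.21-fold and the measured rise was 12.1-fold. The 2 probe sets, which disagreed on the size of the VHL null change, differed by 0.04 in the interaction.

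Egln1, the main oxygen-dependent brake on HIF, rose strongly in cells without VHL whether or not FIH was present. Probe set 1423785_at read 24506 and 22173 in VHL/FIH null, 22064 and 23286 in VHL null, 7500 and 7935 in FIH null and 6725 and 6705 in wild type cells. The groups without VHL lay far above the groups with VHL, and they overlapped each other. Against wild type its signal was 3.37-fold higher in VHL null cells (log2 difference 1.75, SE 0.068, adjusted p = 6.96e-08). The corresponding rise in VHL/FIH null cells was 3.47-fold (log2 difference 1.79, adjusted p = 3.37e-08).

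Probe set 1451110_at of Egln1 read 18661 and 16562 in VHL/FIH null, 15963 and 15592 in VHL null, 4690 and 5530 in FIH null and 3511 and 3317 in wild type cells. Here no groups overlapped. The rise over wild type was 5.13-fold in VHL/FIH null and 4.61-fold in VHL null cells (log2 differences 2.36 and 2.20, adjusted p = 3.35e-08 and 9.45e-08). Against FIH null cells, VHL/FIH null cells were higher by 1.59 with 1423785_at and by 1.78 with 1451110_at, and both passed (adjusted p = 6.38e-08 and 1.96e-07).

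On FIH loss alone the probe sets of Egln1 gave different calls. With 1451110_at Egln1 was 1.49-fold higher in FIH null than in wild type cells (log2 difference 0.58, SE 0.089, adjusted p = 0.00409), a call that ended without a variance trend (adjusted p = 0.0662). With 1423785_at the log2 difference was 0.20 and missed the threshold (95% interval 0.05 to 0.35, adjusted p = 0.146). It passed when each array was centred on its median (0.29) or the probe sets of a gene were averaged (0.39), and it turned to -0.05 with scaling to spiked hybridization controls.

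FIH loss added to VHL loss gave no call for Egln1. The log2 difference between VHL/FIH null and VHL null cells was 0.04 with 1423785_at (95% interval -0.11 to 0.19, adjusted p = 0.699) and 0.16 with 1451110_at (95% interval -0.04 to 0.35, adjusted p = 0.218). The interaction of Egln1 was negative, -0.16 with 1423785_at (adjusted p = 0.299) and -0.42 with 1451110_at (adjusted p = 0.0469). The second value is just past the threshold, and the call ended in 10 of 20 alternatives, 6 of which left out 1 array.

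**Figure D2:**
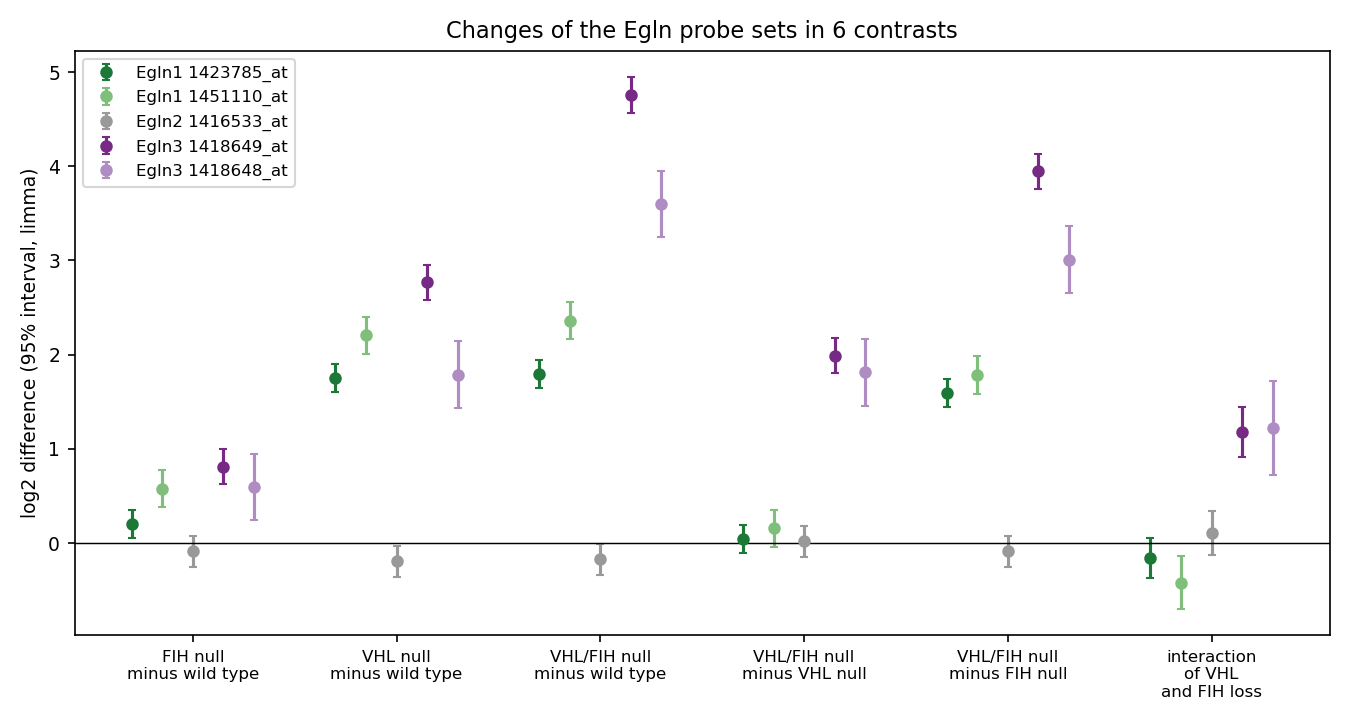
Log2 differences of the 5 Egln probe sets in 6 contrasts, with 95% intervals from limma on 8 arrays. In the contrast of VHL/FIH null minus VHL null, the Egln3 points lie at 1.99 and 1.81 while those of Egln1 and Egln2 lie between 0.02 and 0.16.

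Egln2 did not change past the test in any of the 6 contrasts. Probe set 1416533_at read 4452 and 4044 in VHL/FIH null, 4189 and 4185 in VHL null, 4532 and 4481 in FIH null and 4783 and 4795 in wild type cells. Wild type arrays were the highest, and the VHL/FIH null arrays spanned those of VHL null cells. The log2 difference from wild type was -0.17 in VHL/FIH null (95% interval -0.34 to -0.01, adjusted p = 0.0957), -0.19 in VHL null (95% interval -0.36 to -0.03, adjusted p = 0.0666) and -0.09 in FIH null cells (95% interval -0.25 to 0.08, adjusted p = 0.593). None of these 3 upper bounds lay above 0.08. The VHL null difference passed when either VHL/FIH null array was left out of the shared spread (adjusted p = 0.0438 to 0.0446), and the VHL/FIH null difference, then -0.24, passed without VHL/FIH null replicate 1 (adjusted p = 0.0482). Between VHL/FIH null and VHL null cells the difference was 0.02 (95% interval -0.15 to 0.18), between VHL/FIH null and FIH null cells -0.09 (95% interval -0.25 to 0.08), and the interaction was 0.11 (95% interval -0.13 to 0.34).

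The small negative values of Egln2 stood beside a like shift of its chromosome. The median log2 difference of 848 tested genes on chromosome 7 was -0.21 in VHL null and -0.13 in VHL/FIH null against wild type cells. Over all tested genes the medians were -0.10 and -0.05, and chromosome 8 also had -0.21 in VHL null cells, so the shift was not particular to chromosome 7. With each chromosome centred, an alternative chosen after the data were seen, the VHL null difference of Egln2 turned to 0.01. The 9 spiked hybridization controls read higher than in wild type cells by 0.58 in VHL/FIH null, 0.39 in VHL null and 0.25 in FIH null cells. Scaling to them lowered the median of all genes to -0.63 in VHL/FIH null, -0.49 in VHL null and -0.25 in FIH null cells against wild type, and under it Egln2 passed as lower, at -0.75, -0.59 and -0.34. Relative to those medians its differences were of similar size. For Egln1 and Egln3 the chromosome medians were small beside the changes, -0.21 over 638 genes of chromosome 8 and -0.08 over 404 genes of chromosome 12 in VHL null cells.

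Of the 5 member probe sets, which read 3 genes, 4 were higher in VHL null than in wild type cells, beside 13.2% of all tested probe sets. Those 4 were the 2 of Egln1 and the 2 of Egln3, so they are repeat readings of 2 genes. In VHL/FIH null against wild type cells 4 were higher (14.1% of all), and in VHL/FIH null against FIH null cells also 4 (16.8% of all). In FIH null against wild type cells 2 of 5 were higher, 1 each of Egln1 and Egln3, beside 1.16% of all. In VHL/FIH null against VHL null cells 2 of 5 were higher, both of Egln3, beside 16% of all. The interaction was positive for 2 of 5 (8.96% of all) and negative for 1 (6.76% of all). In each contrast between 2 groups 0 of the 5 were lower, beside 3.17% of all tested probe sets in FIH null and 22.1% in VHL null against wild type cells. The shares of lower probe sets were 20% in VHL/FIH null against wild type, 13.8% against VHL null and 21.5% against FIH null cells. Contrasts that use wild type cells share those 2 arrays.

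In the order of levels, Egln3 ran VHL/FIH null, VHL null, FIH null, wild type from high to low, and each neighbouring pair passed the test with 1418649_at except that VHL null was not tested against FIH null, where 4188 and 4412 stood against 1086 and 1106. The same order held for both Egln1 probe sets, but VHL/FIH null and VHL null cells did not differ past the test. Of 11564 tested genes, 107 (0.925%) had 4 groups in this order without overlap, as Egln3 had. The 3 genes drew apart in the size of their change. In VHL/FIH null against wild type cells the change of Egln3 exceeded that of Egln1 by 2.96 on the log2 scale, and that of Egln1 exceeded that of Egln2 by 1.97, each read by the brighter probe set. These differences between genes were not tested.

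**Figure D3:**
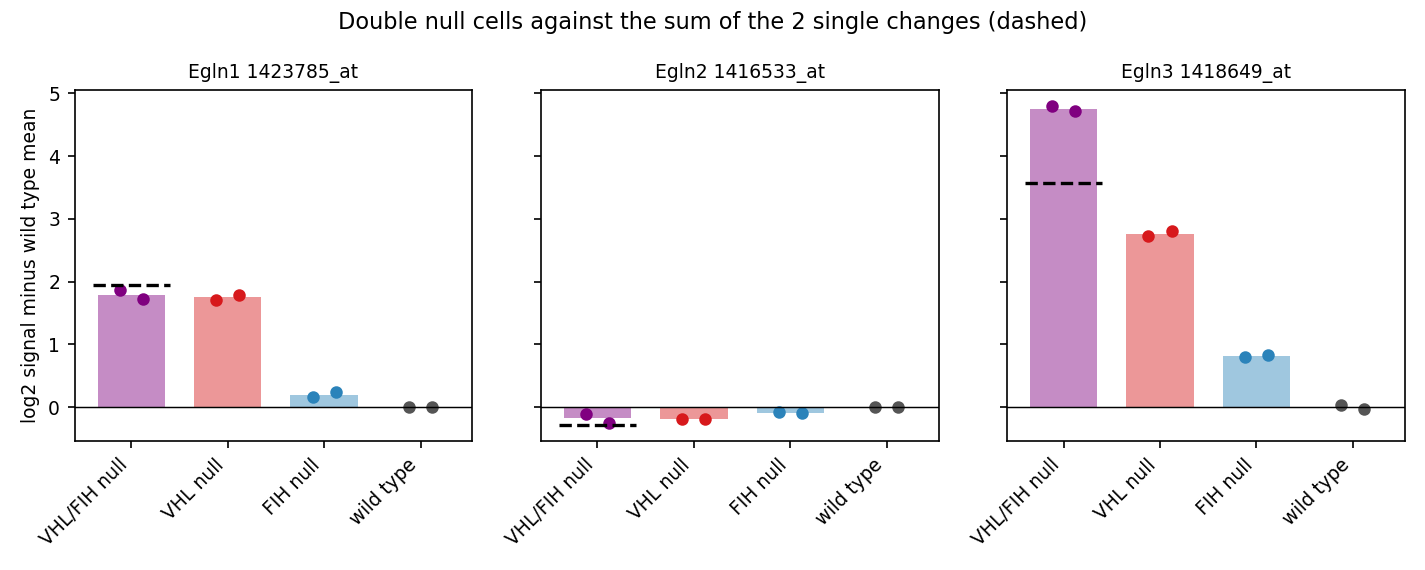
Log2 signal minus the wild type mean for the brighter probe set of each gene, with bars for group means and points for arrays (n = 2 per group). The dashed line over VHL/FIH null cells is the sum of the changes in the single null groups, 1.95 for Egln1, -0.28 for Egln2 and 3.58 for Egln3. The VHL/FIH null bar of Egln3 reaches 4.76 and lies above its line, and that of Egln1 reaches 1.79.

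Read by the brighter probe set of each, Egln3 was one of the strong responders among HIF targets and Egln1 lay near the middle. A list of 30 known HIF target genes without the members was read by the brightest tested probe set of each gene, and 29 were tested. In VHL null against wild type cells 27 were higher and 0 lower (14.4% and 27% of all tested genes), with a median log2 difference of 1.55 beside -0.10 for all genes. The largest were the lipoprotein receptor Vldlr (3.79), the adenylate kinase Ak4 (3.35) and Pdk1, a kinase that holds back pyruvate oxidation (2.65). Egln3 stood above 27 of the 29, and Egln1 above 17. This order depends on the probe set, as 1418648_at of Egln3 gave 1.79 and 1451110_at of Egln1 gave 2.20. In VHL/FIH null cells all 29 were higher than in wild type cells (16.7% of all genes higher and 22.3% lower) and all 29 higher than in FIH null cells (19.7% and 23.9%). Car9 (5.66) was the one target above Egln3 (4.76) against wild type.

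In FIH null against wild type cells 10 of 29 HIF targets were higher and 2 lower (1.39% and 3.89% of all genes), with a median of 0.18 beside -0.00 for all genes. Ankrd37 (1.5), the aldolase gene Aldoc (0.87) and the lactate exporter gene Slc16a3 (0.64) rose most, and those that fell were Adm (-0.83), which encodes the vasodilator adrenomedullin, and Ndrg1 (-0.46). Egln3 stood above 27 of the 29 and Egln1 above 15 by their brighter probe sets. The dimmer probe sets lay close together, at 0.59 for Egln3 and 0.58 for Egln1. The 12 changed targets were 7 without a variance trend, 6 without FIH null replicate 2 and 7 without wild type replicate 1.

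When FIH loss was added to VHL loss, 19 of 29 targets were higher and 1 lower (20.7% and 14.3% of all genes), with a median of 0.43 beside 0.05. Egln3 (1.99) was exceeded by Ankrd37 (2.17) and by Car9, a carbonic anhydrase (4.56), while 26 of the 29 lay above Egln1 (0.04). The interaction passed as positive for 11 and as negative for 0 of 29 (11.9% and 7.19% of all genes). Egln3 (1.18) was exceeded there by Adm (2.77) and Car9 (3.84). The count of 11 is not stable: it was 7 without the filter or with quantile normalization and 4 without a variance trend. Leaving out FIH null replicate 2 gave 5, FIH null replicate 1 or VHL null replicate 2 gave 6, and wild type replicate 2, VHL null replicate 1 or VHL/FIH null replicate 1 gave 7.

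**Figure D4:**
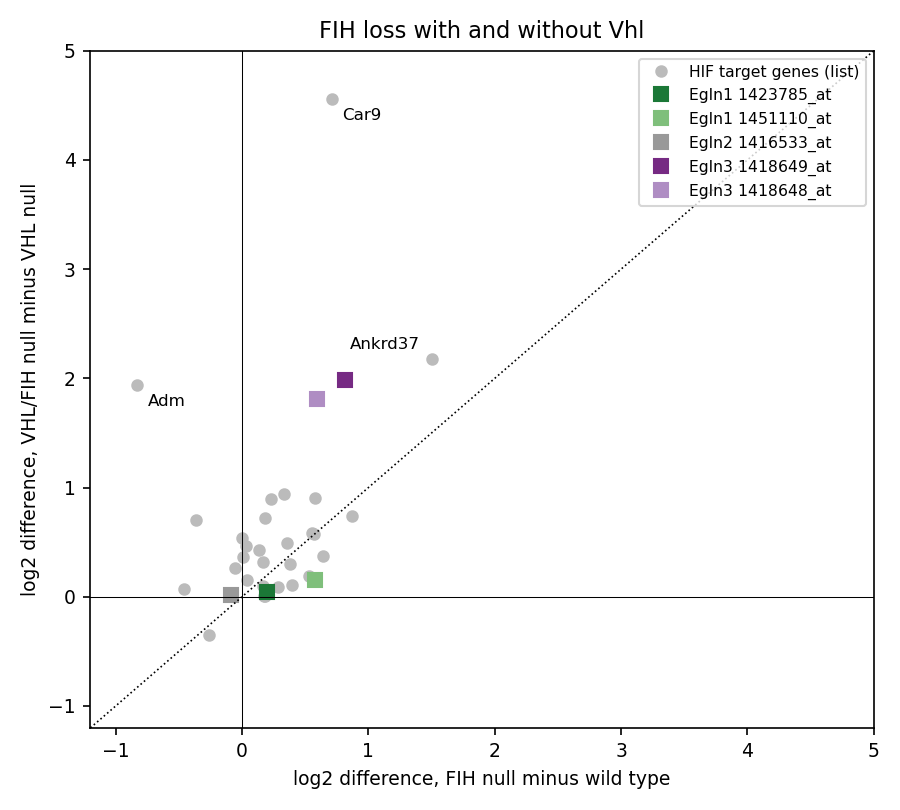
Log2 difference upon FIH loss with VHL present (x axis, FIH null minus wild type) and without VHL (y axis, VHL/FIH null minus VHL null) for 29 HIF target genes (grey) and the 5 Egln probe sets (squares). The dotted line marks equal values. Both Egln3 squares lie above it, at 0.81 and 1.99 and at 0.59 and 1.81, and both Egln1 squares lie below it.

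The HIF subunits and the VHL ligase were set beside the members. Of 14 listed HIF pathway components, all tested, 4 were higher and 5 lower in VHL null against wild type cells (14.4% and 27% of all genes). Cited2, a competitor for p300 and CBP, rose by 0.56 and Elob, a subunit of the VHL ligase, by 0.46. Rbx1, the RING subunit of that ligase, had the largest log2 difference among the rises (1.97). Its probe set had a mean below the cutoff in the other 3 groups, so the rise is only known to be at least 1.15-fold. The falls were led by Vhl (-2.15), which is the gene targeted in these cells, the HIF beta subunit Arnt2 (-1.10) and Hif1an (-0.49). In FIH null cells only Hif1an, the gene targeted there, passed (-0.75) among these 14, beside 1.39% higher and 3.89% lower among all genes.

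Epas1, which encodes HIF-2 alpha, moved with Egln3 in VHL/FIH null cells, and it is named here after its values were seen. It read 661 and 494 in VHL/FIH null, 159 and 204 in VHL null, 161 and 112 in FIH null and 213 and 222 in wild type cells. Only VHL/FIH null cells were above the cutoff, so their mean was at least 1.98-fold higher than that of any other group. In limma they were higher than VHL null, FIH null and wild type cells (adjusted p = 0.00651, 0.00131 and 0.0136). Those tests and the interaction (adjusted p = 0.0129) use group means below the cutoff. The rise of Epas1 rests on 1 tested probe set of 2, and its part in the result for Egln3 was not tested. Hif1a, the HIF-1 alpha gene, averaged 26914 ± 2026 in VHL/FIH null, 33204 ± 934 in VHL null, 26691 ± 643 in FIH null and 30427 ± 274 in wild type cells (SD, n = 2 each). It was lower in VHL/FIH null than in VHL null cells by a log2 difference of -0.30 (adjusted p = 0.00472), opposite in direction to Egln3.

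Proteins that bind the prolyl hydroxylases or mark them for destruction were listed as 13 genes, of which 9 were tested. In VHL null against wild type cells 2 were higher and 4 lower, beside 14.4% higher and 27% lower among all tested genes. Hsp90aa1, a chaperone, rose by 0.32 and Ajuba, a LIM scaffold, by 0.30, while the scaffold Wdr83, which binds Egln3, fell by 0.66, Os9 by 0.47 and the LIM protein Wtip by 0.44. In FIH null cells 0 of the 9 passed, beside 1.39% higher and 3.89% lower among all genes. The median of these genes was -0.18 in VHL null cells beside -0.10 for all genes.

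Other oxygenases that use 2-oxoglutarate changed in both directions. Of 44 tested, 10 were higher and 9 lower in VHL null against wild type cells (14.4% and 27% of all genes), with a median of 0.08. The lysyl hydroxylase Plod2 (2.07), the collagen prolyl hydroxylase P4ha2 (1.55) and Jmjd6 (1.08) rose most. P3h2 (-0.97), a collagen prolyl hydroxylase of another class, and the JmjC proteins Phf2 (-0.72) and Kdm8 (-0.52) fell most. In FIH null cells P4ha1 (0.57) and P4ha2 (0.36) rose and Hif1an, the gene targeted there, fell, and the other 41 did not pass. Among all genes 1.39% were higher and 3.89% lower in that contrast. P4ha1 and P4ha2 were also on the list of HIF targets. When FIH loss was added to VHL loss, 11 of 44 were higher and 2 lower, beside 20.7% and 14.3% of all genes, so the share of higher oxygenases was near the background.

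The genes with the most similar pattern were found by the distance between group means of log2 signal, each gene centred on its own mean, over 4 groups and 11564 genes. For Egln3 the nearest was Pygl, a glycogen phosphorylase, at a distance of 0.36 beside a median of 3.75 for all genes. Pygl averaged 12293 in VHL/FIH null, 2741 in VHL null, 983 in FIH null and 473 in wild type cells. Galr2 (0.58), Tmem74b (0.76), Cited1 (0.90) and Gpr35 (0.93) came next, but each was above the cutoff on only 3 or 4 arrays, so their low groups carry little information. For Egln1 the nearest were Adm2 (0.13), Abhd18 (0.15), Higd1a (0.19), Adgrb1 (0.20) and Vstm5 (0.22), beside a median of 1.78. Adgrb1 was above the cutoff on 2 arrays and Vstm5 on 4, with FIH null and wild type means below it, so their distances rest on low groups too. Higd1a, a HIF target of mitochondria, averaged 74802 in VHL/FIH null, 67110 in VHL null, 24715 in FIH null and 24068 in wild type cells. For Egln2, whose means hardly varied, Cetn1, Morn2, Xrcc6, Psmd13 and Ubp1 lay within 0.03, beside a median of 0.38. All 4 group means of Cetn1 were below the cutoff, so its match compares low signals and says little.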

How the data were processed

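The deposited table gives each of 45101 probe sets an intensity on every array on a linear scale, the signal that the authors computed with MAS5 per the submitters' processing notes; the version is not given in the sources used here. Scale and trimmed mean were read from the values, and array medians ran from 281.7 to 307.5. Probe sets were named by the platform annotation, with symbols updated through Entrez numbers; 34945 carry a single symbol, 945 carry more than that and 9160 are unnamed here. Genes were read by their tested probe set of highest mean log2 signal. Signals were taken to log2 after adding 16, and 64 control probe sets were left out. Tests covered the 24523 probe sets, standing for 11564 genes, whose signal exceeded 291.1 on 2 arrays or more. The 6 contrasts came from a single linear model of the 4 groups (limma 3.58.1, R 4.3.3; eBayes with trend, 4 residual and 6.42 prior degrees of freedom; two-sided), and the procedure was tested on simulated data. The members, lists, tests and alternatives were chosen with earlier results of these data known. Named were all member probe sets, Vhl and Hif1an, up to 3 rises and 3 falls per list in VHL null and FIH null cells, and the 5 genes nearest to each member. No protein sequences were used here.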

Additional observations from a re-analysis of the deposited data

Results flagged for a closer look

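Each null genotype has its own starting line, so loss of FIH and line cannot be told apart here. The change upon FIH loss differed between cells with and without VHL for 3 of the 5 Egln probe sets by the interaction contrast in limma. It was larger without VHL for Egln3, by 1.18 on the log2 scale with 1418649_at (adjusted p = 0.00014) and by 1.22 with 1418648_at (adjusted p = 0.00509). For Egln1 with 1451110_at it was smaller without VHL on the log2 scale, at -0.42 (adjusted p = 0.0469), a call that ended in 10 of 20 alternatives. In mean signal, 1451110_at read 17611 in VHL/FIH null against 15778 in VHL null cells, and 5110 in FIH null against 3414 in wild type cells. The smaller change is thus one of ratio. The other Egln1 probe set gave -0.16 without passing.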

How the results depend on the processing

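Of 661 recomputed member values over 23 settings, 624 kept their direction and side of the threshold; 13 reversed, 13 newly passed and 11 no longer passed, and the cause was not tested. Egln3 1418649_at passed in all 6 contrasts under every setting run. Scaling to hybridization controls gave -0.053 (Egln1 1423785_at) and -0.34 (Egln2) for FIH null minus wild type, -0.59 and -0.75 for Egln2 in VHL null and VHL/FIH null minus wild type, -0.41 for Egln2 in VHL/FIH null minus FIH null, -0.15, -0.033 and -0.17 for Egln1 1423785_at, Egln1 1451110_at and Egln2 in VHL/FIH null minus VHL null, and -0.36 for the Egln1 1451110_at interaction. Centring per chromosome, chosen after seeing the data, gave -0.060 (Egln1 1423785_at) and -0.071 (Egln2) for VHL/FIH null minus VHL null, 0.013 and 0.011 for Egln2 in FIH null and VHL null minus wild type, and -0.084 for the Egln2 interaction. Median centring gave 0.29 (Egln1 1423785_at), 0.0051 (Egln2) and 0.69 (Egln3 1418648_at) for FIH null minus wild type; quantile normalization gave 0.67 for the last and -0.018 for Egln2 in VHL/FIH null minus VHL null. Averaging probe sets gave 0.39 for Egln1 in FIH null minus wild type and let Egln2 pass at -0.19 in VHL null minus wild type (adjusted p = 0.039). The Egln1 1451110_at interaction of -0.42 missed the threshold without the filter (adjusted p = 0.0796), without a variance trend (0.146) and with array weights (0.0537); without a trend its FIH null difference of 0.58 also missed (0.0662), and with array weights that of Egln3 1418648_at, 0.59, passed (0.0409). Leaving out each array gave -0.54 to -0.30 for the Egln1 1451110_at interaction, -0.032 to 0.11 for Egln1 1423785_at and -0.050 to 0.088 for Egln2 in VHL/FIH null minus VHL null, and -0.24 to -0.10 and -0.19 to -0.19 for Egln2 in VHL/FIH null and VHL null minus wild type.

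Counts of changed list genes moved as follows. HIF pathway components in FIH null minus wild type, 1 gene, became 2 with median centring or averaged probe sets and 4 with hybridization controls; the interaction, 2, became 1 without a trend or with centring per chromosome, which also gave 3 in place of 5 for VHL/FIH null minus VHL null. Leaving out arrays gave 5 to 9 for VHL null minus wild type and 5 to 9 for VHL/FIH null minus FIH null. HIF targets gave 7 without a trend and 6 to 14 over left-out arrays for FIH null minus wild type, and 7 without the filter, 7 with quantile normalization, 4 without a trend and 5 to 12 over left-out arrays for the interaction. Other oxygenases in FIH null minus wild type, 3, became 15 with hybridization controls and 1 without a trend; the interaction, 5, became 3 with centring per chromosome and 2 to 6 over left-out arrays, and VHL/FIH null minus VHL null gave 8 to 14. Partners in FIH null minus wild type, 0, became 1 with median centring and 4 with hybridization controls. Their interaction, 1, became 0 without the filter, without a trend, with quantile normalization, hybridization controls or averaged probe sets, 3 with median centring, 2 with centring per chromosome and 0 to 3 over left-out arrays. For VHL/FIH null minus VHL null, 6 partners became 2 without a trend, 3 with centring per chromosome and 3 to 6 over left-out arrays, which gave 3 to 5 for VHL/FIH null minus FIH null and 3 to 5 for VHL/FIH null minus wild type.

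Replicate numbers did not pair the arrays: differences between replicates correlated between groups at -0.02 to 0.03 over 6 pairs of groups. With the replicate number as a block, 0 of 30 member calls changed, and the Egln3 1418649_at interaction stayed at 1.18 (adjusted p = 0.000231). In wild type cells 1418648_at lay near the cutoff, which limits what its differences from wild type can show.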
